A study of Mus musculus with 6 samples.

Results

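The 10 genes described here encode the enzymes of the peroxiredoxin and thioredoxin systems: the 6 peroxiredoxins Prdx1, Prdx2, Prdx3, Prdx4, Prdx5 and Prdx6, the thioredoxins Txn1 and Txn2, and the thioredoxin reductases Txnrd1 and Txnrd2. They were found by symbol among the 19423 genes of the expression table, and all 10 were present and passed the filter on low counts. RNA was sequenced from whole ovaries taken on day 80 from female balb/c-nude mice, with 3 libraries of mice bearing a breast tumor (tumor 1, 2 and 3) and 3 of control mice. The tumor mice carried MBA-MD-231 cells, spelled here as in the labels, placed under the skin, and 1 cell line is named for all 3 although the last digit in the treatment label counts upward. Both groups share the nude background, which lacks a functional thymus, and neither the age of the mice nor a sham injection of the controls is given in the sources used here. The comparison asks how the ovary of a tumor-bearing mouse differs from that of a control mouse.

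Peroxiredoxins reduce hydrogen peroxide and organic peroxides with a reactive cysteine. Thioredoxin, a small protein with a pair of cysteines, returns most of them to the reduced state, and thioredoxin reductase, a selenium-containing flavoenzyme, recharges thioredoxin with electrons from NADPH. Cytosol and mitochondria hold separate sets of these proteins, and in the ovary, where steroid synthesis in mitochondria releases peroxide, they are part of the antioxidant defence of follicles and corpora lutea. The transcription factor NRF2, held in check by KEAP1, is known to drive Prdx1, Txn1, Txnrd1 and Srxn1.

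Promoter windows of RefSeq, build GRCm38.p6, reach from 250 bases before to 50 after an annotated start; 9 of the 10 genes had at least 1, with 11 windows in all, of which Txnrd1 had 3. Both strands were searched for the core of the NRF2 response element (TGACNNNGC), the GC box (GGGCGG), the CCAAT box (CCAAT) and the TATA box (TATAAA). The NRF2 core was found in 2 of the 11 windows, those of Prdx1 and the second start of Txnrd1, and in 12.4% of the 32851 windows of all genes. A GC box was found in 9 of the 11 windows (81.8%), against 35.7% of all windows. The first Txnrd1 window held 3 CG dinucleotides and the other member windows 12 to 27, against a median of 7 over all windows. The motif shares were not matched for this. CCAAT and TATA boxes were found in 3 of the 11 windows each (27.3%), against 37.4% and 13.6% of all windows. Such a match is a run of letters and not a measured binding site. The first 2 sequences are shown because they hold the NRF2 core, which is in capitals and lies on the minus strand. Its leftmost base is 133 bases before the annotated start of the Prdx1 window and 92 before that of the Txnrd1 window. The third is shown because Txn1 was the gene of the 10 that passed the test of tumor against control; its 4 GC boxes are in capitals, begin 168, 125, 55 and 40 bases before the start, and overlap none of the other motifs, as is also true of the NRF2 cores. The windows are chr4:116685349-116685648, plus strand, for Prdx1, chr10:82858956-82859255, plus strand, for Txnrd1, and chr4:57956362-57956661, minus strand, for Txn1. The Prdx1 window lies wholly after the gene start given below, so its annotated start is a different one.
Prdx1: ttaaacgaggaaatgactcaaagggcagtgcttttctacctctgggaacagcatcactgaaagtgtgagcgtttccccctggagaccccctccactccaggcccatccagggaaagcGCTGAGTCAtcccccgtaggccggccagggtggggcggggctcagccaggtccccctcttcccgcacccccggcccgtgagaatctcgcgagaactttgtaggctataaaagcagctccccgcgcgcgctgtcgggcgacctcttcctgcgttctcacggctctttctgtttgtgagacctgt
Txnrd1: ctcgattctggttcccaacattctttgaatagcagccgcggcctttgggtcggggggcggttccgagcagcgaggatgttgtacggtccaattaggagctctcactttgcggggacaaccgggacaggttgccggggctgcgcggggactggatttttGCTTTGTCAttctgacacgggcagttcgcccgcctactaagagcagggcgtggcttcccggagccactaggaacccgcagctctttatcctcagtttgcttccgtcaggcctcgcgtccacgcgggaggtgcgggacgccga
Txn1: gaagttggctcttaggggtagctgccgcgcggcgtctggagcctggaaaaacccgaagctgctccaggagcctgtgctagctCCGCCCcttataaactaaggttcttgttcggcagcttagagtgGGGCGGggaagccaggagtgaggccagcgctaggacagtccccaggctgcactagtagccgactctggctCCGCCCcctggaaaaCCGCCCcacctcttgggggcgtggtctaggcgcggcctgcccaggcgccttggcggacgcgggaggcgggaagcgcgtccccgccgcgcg

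Tumor libraries held between 18278614 and 18482073 estimated counts and control libraries between 18804610 and 19238900. On the first principal component tumor 1 lay at -34.6, near control 1 and control 2 at -42.8 and -42.1, while tumor 2 and tumor 3 lay at 49.6 and 75.1 and control 3 at -5.2. Marker genes of other tissue varied between the libraries. CPM in these marker sums are counts scaled to the library total, without TMM factors. The summed level of 9 adipocyte markers was 7981, 699 and 3060 CPM in tumor 1, 2 and 3 and 472.1 to 693.6 in control libraries. That of 8 oviduct markers was 2245, 205.5 and 94.36 CPM in tumor 1, 2 and 3. In control 1, 2 and 3 the oviduct sum was 2171, 2247 and 536.6 CPM. The labelled tissue was supported by its own markers, since 8 oocyte markers summed to 524.6 to 690.5 CPM in tumor and 317.9 to 430.1 in control libraries and 7 granulosa cell markers to 2445 to 4206 and 3257 to 3720. Tumor 1 held the lowest granulosa sum, with 4206 and 4204 CPM in tumor 2 and tumor 3. The sum of 6 luteal cell markers was 2643, 7929 and 8033 CPM in tumor 1, 2 and 3 and 13450 to 14900 in control libraries. Of these 6 markers 2 fell and none rose, against 3.91% of all genes lower in tumor. Of the oocyte markers 5 of 8 rose, against 3.80% of all genes higher in tumor (edgeR without length correction, here and for the other markers). The 4 theca cell markers, of which 2 rose, summed to 261.3, 1881 and 2622 CPM in tumor 1, 2 and 3 and to 167.4, 2831 and 174.9 CPM in control 1, 2 and 3, so that control 2 stood with tumor 2 and tumor 3. The 6 macrophage markers summed to 183.6 to 277.9 CPM in tumor and 231.1 to 283.1 in control libraries, 4 endothelial markers to 306.9 to 333.5 and 325.5 to 341.6, and 4 T cell markers to 4.71 to 6.15 and 5.15 to 5.20. In whole ovaries fewer cells of a type and less RNA per cell cannot be told apart, and the part of these cell types in the values below was not tested.

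Short and long genes differed between the groups as a whole, and most of the 10 genes are short. Among all genes tested, the median log2 fold change of tumor over control was -0.35 for the 1113 genes under 1000 bases, -0.24 for the 1637 of 1000 to 1500 bases, -0.10 for the 5675 of 1500 to 3000 bases and 0.15 for the 7362 longer ones. Txnrd1, with 3337 bases, is the only long gene of the 10; Txnrd2 and Prdx6 have 1850 and 1792, and the other 7 have 924 to 1402. Genes under 1000 bases lay 0.16, 0.16 and 0.12 below their mean over the 6 libraries in tumor 1, 2 and 3 (log2, median over genes), against 0.31, 0.03 and 0.16 above it in control 1, 2 and 3. Control 2 thus showed less of this trend than control 1 and control 3. Each gene is therefore given from both the uncorrected fit and a fit with an offset that removes the trend over gene length in every library, after which the 4 band medians lay between -0.02 and 0.01.

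**Figure D1:**
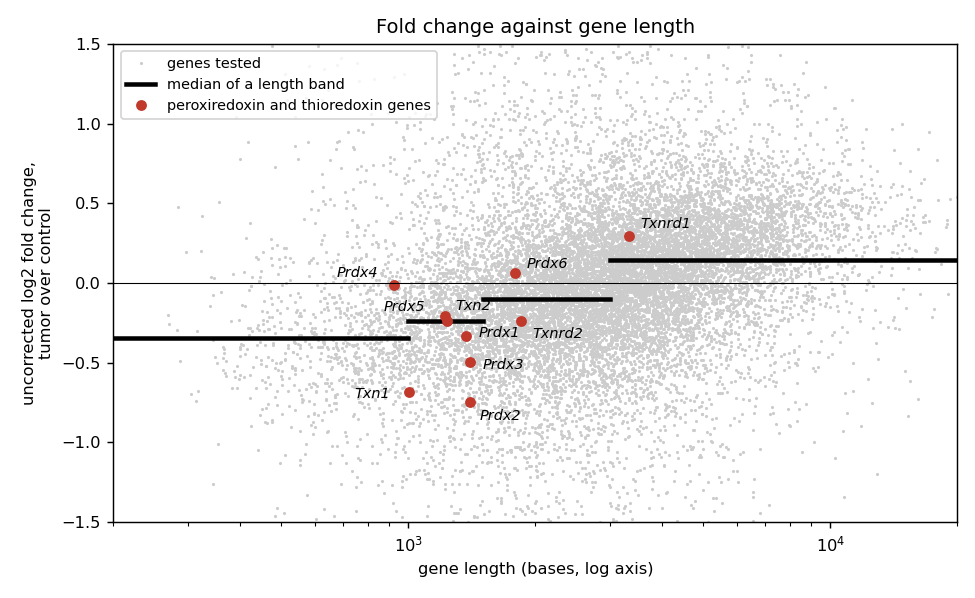
Uncorrected log2 fold change of tumor over control (y axis) against gene length in bases (log x axis); grey points are the 15787 genes tested, black lines the medians of 4 length bands and red points the 10 peroxiredoxin and thioredoxin genes. Txn1 and Prdx2 lie below the median of their band, Prdx4 lies above its own at -0.01, and genes outside the axes are not drawn.

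One of the 10 genes passed the threshold of 0.05 on the adjusted p in the uncorrected fit, Txn1, which fell; among all 15787 genes 7.71% passed, 3.80% higher and 3.91% lower in tumor. With the length correction 0 of the 10 passed edgeR's test, against 2.26% of all genes, and 4 of them had an unadjusted p under 0.05 (Prdx2, Prdx4, Txn1 and Txnrd1), against 25.6% of all genes. Uncorrected, 5 of the 10 had an unadjusted p under 0.05, against 31.0% of all genes. The 3 tumor and 3 control libraries did not overlap for 6 of the 10 genes before the correction, against 38.1% of all genes, and for 4 of the 10 after it, against 33.0%. The median log2 fold change of the 10 was -0.24 before and -0.05 after the correction, against -0.015 and -0.001 over all genes tested. DESeq2, run on the same counts without the correction, called 5 of the 10, against 19.5% of all genes with an adjusted p. Whether the members differ from other genes as a set was not tested. In the authors' deposited table, a DESeq2 comparison per the file headers, q was under 0.05 for 5 of the 10 (Prdx1, Prdx2, Prdx3, Txn1 and Txnrd1) and for 14.7% of the genes in that table.

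**Figure D2:**
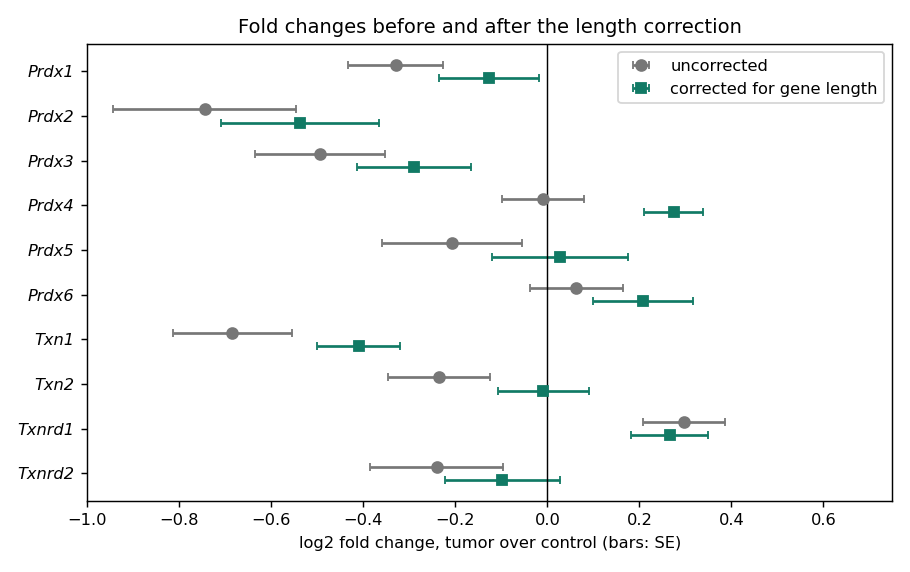
Log2 fold change of tumor over control (x axis, bars are SE, 3 libraries per group) for each of the 10 genes, before (grey circles) and after (green squares) the correction for gene length. The correction moves 9 genes to the right and Txnrd1 slightly to the left; Txn1 and Prdx2 stay lowest at -0.41 and -0.54, and Prdx4 moves to 0.28.

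Per transcript length, Prdx1 was the most abundant of the 10 in both groups and Txnrd2 the least. Deposited TPM (a level per transcript length, scaled to the library) averaged 610.3 ± 49.4 in tumor and 686.7 ± 40.3 in control libraries for Prdx1, and 23.0 ± 0.48 and 24.1 ± 2.93 for Txnrd2 (SD, n = 3 each). TPM divides a gene by nearly the same length in every library and so does not remove the length trend between groups. In tumor ovaries the order ran from Prdx1 through Prdx2, Prdx6, Txn1, Prdx3, Txn2, Prdx5, Prdx4 and Txnrd1 to Txnrd2, and in control ovaries Txn1 and Prdx3 stood ahead of Prdx6. Prdx6, Txn1, Prdx3 and Txn2 were close neighbours in tumor ovaries, with means of 251, 219.7, 206.5 and 200.3 TPM; the libraries of Txn1 (200.9 to 229.1) overlapped those of Prdx3 (182.6 to 231.9) and of Txn2 (177.8 to 215.1). Prdx5 and Prdx4 overlapped too in tumor, with 134.3 to 196.1 and 150 to 154.7 TPM, and so did Prdx1 and Prdx2 in control, with 655.8 to 732.3 and 507.7 to 660.2 TPM. Summed over the family, peroxiredoxins gave 1784 ± 80.9 TPM in tumor and 2067 ± 50.2 in control libraries, thioredoxins 420 ± 15.5 and 525.3 ± 31.0, and reductases 96.1 ± 1.48 and 77.2 ± 3.94. The reductase messages were thus the scarcest in both groups, and their sum was the only one of the 3 that was higher in tumor. That difference lay in Txnrd1, at 73.1 ± 1.77 TPM in tumor and 53.1 ± 6.61 in control libraries, and not in Txnrd2. Txnrd1 is also the only long gene of the 10, and these sums keep the length trend.

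**Figure D3:**
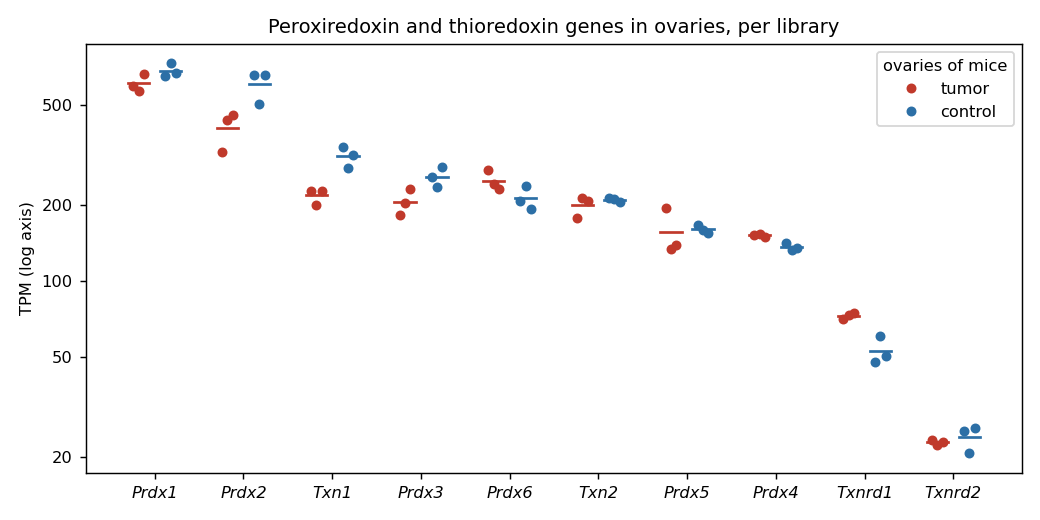
Deposited TPM (log y axis) of the 10 genes in the 3 tumor (red, left) and 3 control (blue, right) libraries, genes ordered by their mean; points are libraries and lines are group means. The groups stand apart most clearly for Txn1 and Prdx2, lower in tumor, and for Txnrd1, at 71.1 to 74.6 TPM in tumor and 48.0 to 60.5 in control. They also do not overlap for Prdx3, lower in tumor, or for Prdx4, at 150 to 154.7 TPM in tumor and 133.1 to 141.6 in control.

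Prdx1 and Prdx2 are the abundant peroxiredoxins of the cytosol and nucleus. CPM of single genes are counts scaled to the library total with TMM factors, unlike the marker sums. Prdx1 (chromosome 4, 116684958 to 116700000) had 361.5, 350.9 and 421.1 CPM in tumor 1, 2 and 3, against 476.8, 483.1 and 464.3 CPM in control 1, 2 and 3. All 3 tumor libraries lay below all controls, by -0.33 ± 0.10 (log2 fold change ± SE, edgeR adjusted p = 0.0902). With the length correction the libraries overlapped, at 390.5, 373.1 and 447.2 corrected CPM in tumor and 411.2, 479.5 and 431.6 in control, and the fold change was -0.13 ± 0.11 (adjusted p = 0.510). Prdx2 (chromosome 8, 84969622 to 84976537), the peroxiredoxin known as the most abundant in red blood cells, had 201.5, 277 and 298.1 CPM in tumor, against 492.5, 343 and 465.8 CPM in control. Here the groups stayed apart after the correction, at 217.3, 293.9 and 316.1 corrected CPM in tumor and 426.2, 340.4 and 433.9 in control, although tumor 3 and control 2 came close. The log2 fold change was -0.74 ± 0.20 before (edgeR adjusted p = 0.0675) and -0.54 ± 0.17 after the correction (adjusted p = 0.122), with a 95% interval of -0.95 to -0.12. Without control 2 the uncorrected fold change of Prdx2 passed, at -0.85 (edgeR adjusted p = 0.0376). Without tumor 1, the tumor library with the least Prdx2, its length-corrected value was -0.385 (edgeR adjusted p = 0.0944). The red blood cell markers Hba-a1, Hba-a2 and Alas2 were summed together with Hbb-bs, which was at 0 in all libraries. Without TMM factors the sum was 562.8, 123.1 and 258.5 CPM in tumor and 299.7, 213.4 and 264.6 in control. Hbb-bt was not in the table, and the part of these markers in the Prdx2 values was not tested. The 50-base windows of the longest protein-coding GENCODE transcript of Prdx2 and of Prdx1 were compared with other genes. Of those of Prdx2 23.8% also occur in other genes, mainly Tdpx-ps1, Junb and Rnaseh2a, and of those of Prdx1 10.9%. These transcripts held 1563 and 2245 such windows, while the deposited transcripts have 1417 and 1367 bases for Prdx2 and 1368 for Prdx1. The share of deposited reads that could not be placed by sequence alone was therefore not measured.

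Prdx3 and Prdx5 work in mitochondria, where Prdx3 is the main peroxide-reducing peroxiredoxin and Prdx5 is also found in peroxisomes and the cytosol. Prdx3 (chromosome 19) had 112.6, 129.4 and 149.9 CPM in tumor, against 191.8, 159.5 and 200.3 CPM in control. Its tumor libraries were below all controls before the correction (-0.49 ± 0.14, edgeR adjusted p = 0.0771), and tumor 3, at 159.1 corrected CPM, passed control 2, at 158.4, after it (-0.29 ± 0.12, adjusted p = 0.206). Without tumor 1 the length-corrected value of Prdx3 was -0.193 (edgeR adjusted p = 0.242). Prdx5 (chromosome 19) had 105.8, 74.1 and 79.1 CPM in tumor, against 108.9, 94.0 and 96.1 CPM in control. Tumor 1 stood near control 1 and above the other tumor libraries, and the log2 fold change was -0.21 ± 0.15 before and 0.03 ± 0.15 after the correction (edgeR adjusted p = 0.399 and 0.932), so its direction changed. Prdx5 overlaps Trmt112, a methyltransferase cofactor gene on the other strand, by 409 bases. Of the 50-base windows of the longest protein-coding GENCODE transcript of Prdx5, 29.7% also occur in Trmt112. Trmt112 had 1205, 1320 and 1305 estimated counts in tumor and 1755, 1329 and 1590 in control libraries, and whether the library kept strand is not given in the sources used here.

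Prdx4 is the peroxiredoxin of the endoplasmic reticulum and Prdx6 the one recharged by glutathione rather than thioredoxin. Prdx4 (chromosome X, 155323918 to 155342272) is the shortest of the 10, and its value depended most on how length was treated. Uncorrected it had 61.8, 64.9 and 64.1 CPM in tumor, against 69.3, 59.1 and 63.6 CPM in control, a difference of -0.01 ± 0.09 (log2 fold change ± SE, edgeR adjusted p = 0.953). Its deposited TPM, not corrected for the length trend, did not overlap, at 152.1, 154.7 and 150 in tumor and 141.6, 133.1 and 135.4 in control. Corrected for length it had 68.6, 71.4 and 69.4 CPM in tumor, against 57.1, 58.3 and 57.5 CPM in control. After the correction the tumor libraries lay above all controls with little spread in either group, by 0.28 ± 0.06 with a 95% interval of 0.12 to 0.43, and did not pass (edgeR adjusted p = 0.0749). Prdx6 (chromosome 1) had 218.5, 197.5 and 193 CPM in tumor, against 199.2, 207.9 and 175.8 CPM in control. The groups overlapped, and the log2 fold change was 0.06 ± 0.10 before and 0.21 ± 0.11 after the correction (edgeR adjusted p = 0.718 and 0.283).

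Of the thioredoxins, the cytosolic Txn1 was lower in tumor ovaries, and the mitochondrial Txn2 was not clearly different. Txn1 (chromosome 4, 57943373 to 57956411), which recharges peroxiredoxins and supplies electrons to ribonucleotide reductase, had 1951, 1706 and 1949 estimated counts in tumor 1, 2 and 3, against 3375, 2551 and 2993 in control 1, 2 and 3. In CPM this was 101.4, 90.9 and 106.2 in tumor and 182.4, 136.5 and 161.1 in control. The highest tumor library stayed below the lowest control, and Txn1 fell by 0.68 ± 0.13 (log2 fold change ± SE, edgeR adjusted p = 0.0386). Corrected for length, Txn1 had 112.1, 99.3 and 114.6 CPM in tumor, against 151.6, 135 and 146.2 CPM in control. The groups still did not overlap; the log2 fold change was -0.41 ± 0.09, with a 95% interval of -0.63 to -0.19, and no longer passed (adjusted p = 0.0683). The uncorrected call also ended without tumor 2 (edgeR adjusted p = 0.106), tumor 3 (0.120), control 1 (0.148) or control 3 (0.130), and with the adipocyte markers as a covariate (0.272), while the log2 fold change lay between -0.78 and -0.41 in the alternatives to the uncorrected fit. Txn2 (chromosome 15) had 96.8, 119.8 and 118.8 CPM in tumor, against 140.2, 126.2 and 128.6 CPM in control. Its tumor libraries lay below the controls by -0.24 ± 0.11 before the correction (edgeR adjusted p = 0.203) and overlapped them after it, at -0.01 ± 0.10 (adjusted p = 0.968, 95% interval -0.25 to 0.23). The Txn1 to Txn2 ratio of TPM, a pair of genes of similar length, was 1.29, 0.93 and 1.10 in tumor and 1.60, 1.33 and 1.54 in control libraries.

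Txnrd1, the cytosolic reductase, was higher in tumor ovaries in both fits without passing the threshold. Txnrd1 (chromosome 10, 82833951 to 82897724) had 104.8, 110.5 and 114.9 CPM in tumor, against 85.7, 97.5 and 85.5 CPM in control. All 3 tumor libraries lay above all controls, by 0.30 ± 0.09 before and 0.27 ± 0.08 after the correction (log2 fold change ± SE, edgeR adjusted p = 0.0838 and 0.118; corrected 95% interval 0.06 to 0.47). Without control 2, the control library with the most Txnrd1, the uncorrected value passed (edgeR adjusted p = 0.0343). The mitochondrial reductase Txnrd2 (chromosome 16), the least abundant of the 10, had 19.2, 18.7 and 19.6 CPM in tumor, against 25.1, 18.6 and 24.4 CPM in control. Control 2 stood with the tumor libraries here, and the log2 fold change was -0.24 ± 0.14 before and -0.10 ± 0.12 after the correction (edgeR adjusted p = 0.305 and 0.675).

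The deposited estimates also divide Txnrd1 among 4 transcripts. The transcript named Txnrd1-201 in GENCODE, 3261 bases long, had 759.4, 861.4 and 885.5 estimated counts in tumor, against 249.6, 566.8 and 462.1 in control. The transcript Txnrd1-208, 3368 bases long, had 1072.2, 1143.1 and 1147 in tumor, against 1246.8, 1167.8 and 999.8 in control. The higher Txnrd1 count of the tumor libraries therefore lay in Txnrd1-201, while Txnrd1-208 was within the control range in all 3 tumor libraries. Txnrd1-201 made up 40.4% ± 2.4 of the gene's counts in tumor and 25.3% ± 8.35 in control (SD, n = 3 each), and Txnrd1-208, the most abundant transcript, 54.2% ± 0.995 and 68.6% ± 8.77. The share of Txnrd1-208 did not overlap between the groups, at an exact two-sided permutation p of 0.1, the smallest that 3 against 3 allows (0.5 adjusted over the 5 genes tested). In GENCODE both transcripts begin inside the Txnrd1 window printed above, at 82859179 and 82859207. How the estimator divides reads of 50 bases between transcripts that share most of their sequence is uncertain. The main transcript's share gave an exact p of 0.4 for Prdx2, 0.8 for Prdx4, 0.4 for Prdx6 and 0.4 for Txnrd2, and the transcripts of the other 5 genes were not tested.

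**Figure D4:**
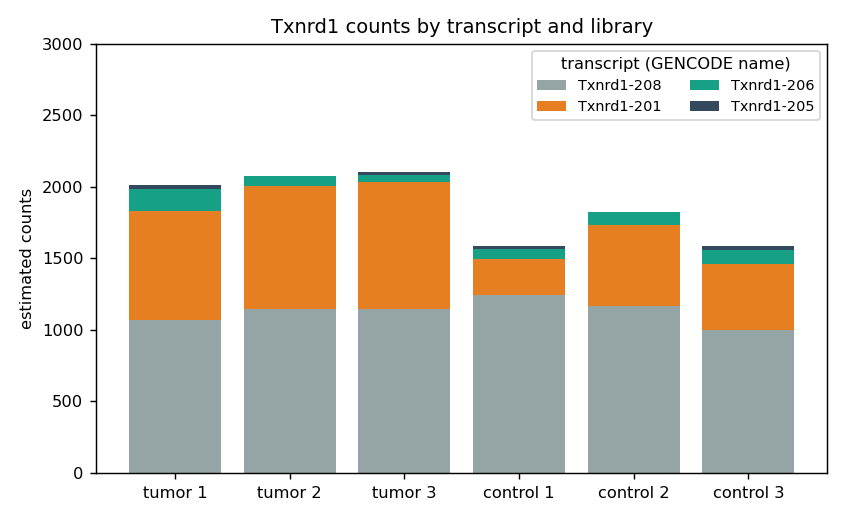
Estimated counts of Txnrd1 (y axis) in each library, stacked by deposited transcript under its GENCODE name. Txnrd1-201 (orange) is at 759.4 to 885.5 in the 3 tumor libraries and 249.6 to 566.8 in the 3 control libraries, and Txnrd1-208 (grey) is at similar heights in both.

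Ratios within a library compare members without a scaling factor. For 6 pairs chosen after their values were seen, the TPM ratio was tested with an exact two-sided permutation test, which cannot go below 0.1 here. Txnrd1 to Txnrd2, genes of unlike length, was 3.18 ± 0.13 in tumor and 2.25 ± 0.58 in control libraries, and Prdx4 to Txn1, a pair of similar length, was 0.70 ± 0.06 and 0.44 ± 0.03 (exact p = 0.1 each, 0.15 adjusted over the 6 pairs). Neither pair overlapped between the groups. The same held for Txn1 to Txn2 and for Prdx6 to Prdx1, also of unlike length, at 0.41 ± 0.06 in tumor and 0.31 ± 0.02 in control (exact p = 0.1, adjusted 0.15). Prdx2 to Prdx1 was 0.67 ± 0.12 in tumor and 0.89 ± 0.17 in control and overlapped (exact p = 0.2), as did Prdx3 to Prdx1 (exact p = 0.3).

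The gene most like each member was the one with the highest Pearson correlation of length-corrected log2 CPM over the 6 libraries. It was Smarca1 for Prdx2 (r = 0.9985), Rps27rt for Prdx4 (0.9982), F2rl3 for Txn1 (0.9958) and Nupl1 for Txnrd1 (0.9972), and Nup98, Cfdp1, Crybg1, Ccdc112, Npr2 and Ermp1 for Prdx1, Prdx3, Prdx5, Prdx6, Txn2 and Txnrd2 (0.986 to 0.998). The 6 points are libraries of 2 groups, and such values are common: 465 genes had r above 0.95 with Prdx2 and 135 with Txn1.

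Among 16 tested regulators and relatives of both systems, 1 rose and 3 fell in the uncorrected fit (edgeR), against 3.80% and 3.91% of all genes. With the length correction 1 rose and 1 fell, against 2.26% of all genes in either direction. Srxn1, sulfiredoxin, which rescues overoxidised peroxiredoxins, had 17.4, 18.4 and 29.1 CPM in tumor, against 54.2, 44.3 and 55.5 CPM in control. It fell by 1.25 ± 0.22 on the log2 scale (edgeR adjusted p = 0.0385), and the length-corrected value was nearly the same, -1.22 ± 0.22, with an adjusted p of 0.0508. Map3k5, the stress kinase ASK1 that reduced thioredoxin holds inactive, had 74.2, 88.6 and 83.1 CPM in tumor, against 45.6, 49.8 and 49.4 CPM in control. It rose by 0.76 ± 0.10 before and 0.58 ± 0.09 after the correction (edgeR adjusted p = 0.0301 and 0.0409). Txndc2, a thioredoxin-domain gene known from sperm, fell by 1.43 ± 0.21, to 6.24 to 8.53 CPM in tumor against 16.6 to 24.6 CPM in control, and kept its call with the correction (-1.30 ± 0.23, adjusted p = 0.0474). Txndc17 fell by 0.49 ± 0.10 before the correction (edgeR adjusted p = 0.0410) and was at -0.29 after it (0.112). The median of the list was -0.15 before and -0.01 after the correction.

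Among the suppliers of reducing power, 3 of 20 tested genes passed in the uncorrected fit, against 7.71% of all genes. Of 12 genes of NADPH supply, Nadk2, a mitochondrial NAD kinase, rose by 0.44 ± 0.10 and Idh1, cytosolic isocitrate dehydrogenase, fell by 1.04 ± 0.21 in the uncorrected fit (edgeR adjusted p = 0.0498 and 0.0428), and none passed with the correction (edgeR adjusted p = 0.0802 and 0.0678), where 5 of the 12 had an unadjusted p under 0.05, against 25.6% of all genes. DESeq2 called 1 of the 12 higher and 3 lower, against 19.5% of all genes in either direction. Idh1 had 201.5, 311.8 and 358 CPM in tumor, against 592.7, 561.5 and 633.3 CPM in control. Me1, malic enzyme, had 738.7, 925.5 and 1276 CPM in tumor, against 2936, 1288 and 3051 in control, and did not pass (-1.31 ± 0.38, edgeR adjusted p = 0.0822). Of 8 genes of glutaredoxins and glutathione, Gss, glutathione synthetase, fell by 0.83 ± 0.15 (edgeR adjusted p = 0.0385) and was at -0.69 with the correction (adjusted p = 0.0589). Glrx, glutaredoxin, was at -0.67 ± 0.20 (edgeR adjusted p = 0.0785), and Glrx5 and Gclm at -0.22 and 0.20. DESeq2 called 2 of these 8 lower, against 9.59% of all genes, and none higher. None of 7 thioredoxin clients passed in either fit: ribonucleotide reductase subunit Rrm2b was at 0.25, and the methionine sulfoxide reductases Msrb1, Msrb2 and Msrb3 at -0.57, -0.40 and 0.49 (edgeR adjusted p of 0.0762, 0.109 and 0.125). Of these clients 3 had an unadjusted p under 0.05 uncorrected and 1 with the correction, against 31.0% and 25.6% of all genes, and DESeq2 called 1, which was lower, against 9.59% of all genes called lower. Taldo1, transaldolase of the pentose phosphate pathway, was at -0.65 (edgeR adjusted p = 0.0785).

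Of 10 genes of oxidative folding in the endoplasmic reticulum, where Prdx4 works, 0 rose uncorrected and, against 3.91% of all genes, 2 fell. They were the disulfide isomerase gene Pdia3, with 608.3, 664.4 and 743 CPM in tumor against 1027, 941 and 943.1 CPM in control (-0.53 ± 0.11, edgeR adjusted p = 0.0451), and Gpx8, a peroxidase of that compartment (-0.51 ± 0.10, adjusted p = 0.0397). Pdia6 and Pdia4 were at -0.51 and -0.41 (edgeR adjusted p = 0.0536 and 0.0658). With the correction none passed edgeR's test, 6 of the 10 had an unadjusted p under 0.05, against 25.6% of all genes, and the list's median was -0.28, against -0.41 uncorrected. DESeq2, without the correction, called 7 of the 10 lower, against 9.59% of all genes. None of 9 genes of selenoprotein synthesis, which make the thioredoxin reductases, passed edgeR's test in either fit. Among all genes 7.71% passed uncorrected and 2.26% with the correction. DESeq2 called none of the 9, against 19.5% of all genes. In each edgeR fit 1 of the 9 had an unadjusted p under 0.05, against 31.0% of all genes uncorrected and 25.6% corrected. Sephs2 was at 0.56, Sepsecs at 0.27, Secisbp2 at 0.15 and Scly at -0.43. Of 8 NRF2 and KEAP1 reference genes, 2 fell uncorrected, against 3.91% of all genes. Hmox1, heme oxygenase, had 30.7, 36.2 and 38 CPM in tumor against 136.9, 84.9 and 102.8 CPM in control (-1.63 ± 0.19, edgeR adjusted p = 0.0277). Nqo1, a quinone reductase, was the other (-1.05 ± 0.19, edgeR adjusted p = 0.0385). Hmox1 also passed with the correction, at -1.44 ± 0.15 (edgeR adjusted p = 0.0264), and Nqo1 did not, at -0.86 (0.0574). Bach1 and Mafk were at 0.39 and 0.28 (edgeR adjusted p = 0.0782 and 0.117), and Nfe2l2, which encodes NRF2, was at 152.2 to 174.5 CPM in tumor and 167.7 to 183.9 CPM in control. Without tumor 2, tumor 3, control 1 or control 3 none of the 11 genes of these lists that passed uncorrected kept its call; Idh1 also lost it without control 2 (edgeR adjusted p = 0.0504) and Nadk2 without tumor 1 (0.0519). Of the 3 length-corrected calls, Map3k5 and Txndc2 were also lost without control 2 (edgeR adjusted p = 0.0502 and 0.0587).

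**Figure D5:**
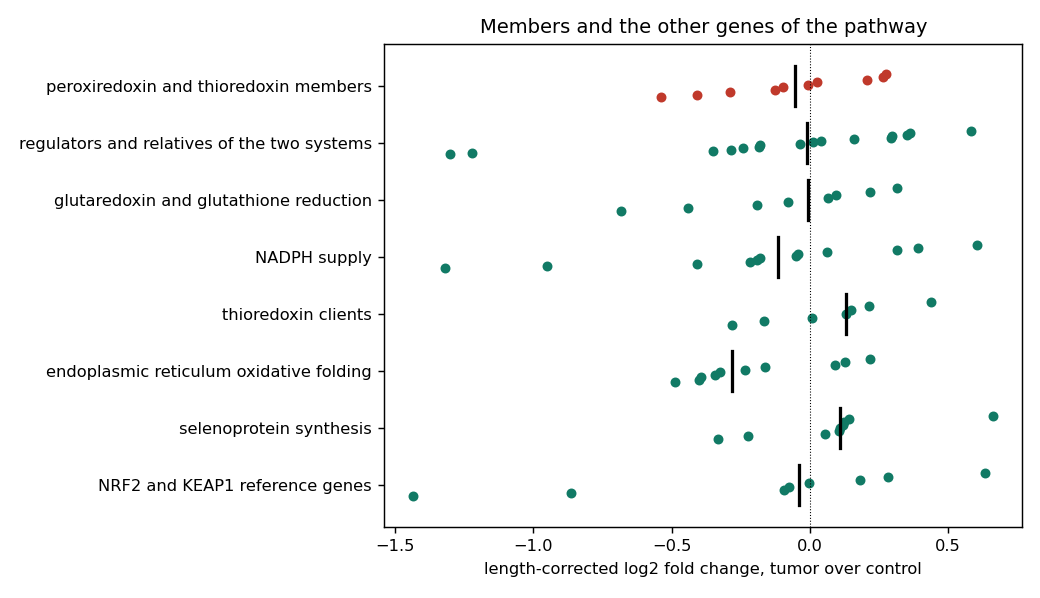
Length-corrected log2 fold change of tumor over control (x axis) for each tested gene of 8 lists (y axis); points are genes, black bars are list medians, and the 10 peroxiredoxin and thioredoxin genes are in red. Most genes lie within 0.5 of 0, and Hmox1, Me1, Txndc2 and Srxn1 lie below -1.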

How the data were processed

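Trizol-extracted RNA from ovaries of 3 tumor-bearing and 3 control mice gave MGIseq500 single-end libraries read to 50 bases, per the labels' protocols. Tools named in the submitters' processing notes, without their roles, are RSEM 1.2.12, Bowtie2 2.2.5 and HISAT2 2.0.4; the build is GRCm38.p6. The authors deposited estimated counts, of which 39.2% of values above 0 were not whole (tolerance 0.005), and FPKM and TPM per gene and transcript, per the file headers; 24 columns of per-sample values were not used. The authors' deposited table of log2 fold changes and q-values is quoted where named.

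Estimated counts were rounded and tested with edgeR 4.0.16 in R 4.3.3 (filterByExpr, TMM factors of 0.962 to 1.05, quasi-likelihood F test, robust, group only), with Benjamini-Hochberg adjustment over 15787 genes at 0.05; positive values mean higher in tumor. SE is the absolute log2 fold change over the square root of F. The length-corrected fit adds an offset per gene and library: a lowess curve (span 0.3) of log2 CPM minus the gene's mean over 6 libraries against log2 gene length. Gene length came from deposited counts and FPKM. Alternatives used DESeq2 1.42.0 and limma 3.58.1 on log2(FPKM + 1) or log2(FPKM + 0.1). Scripts were tested on simulated data. No library pair agreed within sampling noise (chi-square per degree of freedom at least 12.7). Nothing in the labels ties samples to litters or cultures, so p-values measure the spread between these samples; counting limits do not cover amplification.

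The 10 members and the gene lists were chosen with earlier results of these data known. Named genes were the members, up to 4 genes with the smallest p per list, and each member's most similar gene; the reference to Nfe2l2 and the 6 ratios were chosen after their values were seen. The labels do not say whether replicate numbers pair samples. Same-numbered libraries' deviations from their group means correlated at 0.237, -0.212 and 0.529, which are too few values to decide it.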

Additional observations from a re-analysis of the deposited data

How the results depend on the processing

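Against 1217 genes passing in the uncorrected fit, 3012 passed with DESeq2, 357 with the length offset, 202 with offsets for length and GC content, 2615 with oviduct markers as a covariate, and 0 with adipocyte markers (2540 at an unadjusted p under 0.05) or with the replicate block (4233). Leaving out 1 library gave 0 to 2605, and 0 to 1407 (583 without control 2) against 357 in the length-corrected fit, where the block gave 0 (3417). Whether the replicate number pairs samples is not known, and the calls lost with the block are no measure of effect. The other alternatives (RLE factors, filters, GC content alone, limma, and average transcript length and a span of 0.7, both added after seeing the data) stayed within 1.5 times.

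Txn1 lost its call with the length offset, with length and GC content (adjusted p = 0.0506), with adipocyte markers, with the block (0.0939) and without 4 of the 6 libraries; its direction held throughout. Members that did not pass gained a call with DESeq2 (Prdx1, Prdx2, Prdx3 and Txnrd1), with the GC offset (Prdx1, 0.0457) and with oviduct markers (Prdx2, 0.0185, and Prdx3, 0.0207). Values near 0 changed sign. Prdx4 was 0.004 with RLE factors and with DESeq2, 0.275 with the length offset, 0.198 with length and GC content, 0.057, 0.058 and 0.057 with limma, 0.058 with adipocyte markers, and -0.025 to 0.072 without 1 library. Prdx5 was 0.027 and 0.112 with length and with length and GC content, and between -0.148 and -0.001 where leaving out a library turned the length-corrected value; Txn2 was 0.015 with length and GC content, and 0.022 to 0.086 in such length-corrected fits. Prdx6 was -0.023 with adipocyte markers. Of the other named genes, Glrx5 was 0.064, 0.167 and 0.021 with length, length and GC content, and adipocyte markers, Sepsecs -0.009 with length and GC content, Gclm, Rrm2b and Sephs2 -0.039, -0.045 and -0.012 with adipocyte markers, and without 1 tumor library the length-corrected Rrm2b was -0.041 and Glrx5 -0.019. The share of Txnrd1-201 differed by 15.1 percentage points, by 10.3 to 18 without 1 library, and by 15.3 from TPM. The cause of these changes was not tested. Txnrd2, the scarcest of the 10, had 351 to 370 counts in tumor and 347 to 464 in control libraries, and an effect of depth was not tested.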
